A study of Mus musculus with 30 samples.

Results

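Immediate early genes are transcribed within minutes of strong synaptic input, from transcription factors already present in the cell, and without new protein synthesis. In neurons they are read as a trace of recent activity, and the same genes also respond in glia and in vessel cells to growth factors, stress and handling of the tissue. 10 such genes were listed by name: Fos, Fosb, Junb, Egr1, Egr2, Arc, Npas4, Nr4a1, Ier2 and Dusp1. Rows with these names were taken from the table of 16995 genes. 9 of the 10 had a row, and Egr2 was not analysed here.

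The tissue was the intermediate laminae of spinal levels C5/C6, on the side that lost its corticospinal input, from adult mice labelled C57BL/6 (female C57BL/6J by the study's methods). The 5 stroke groups had received a photothrombotic stroke of the right sensorimotor cortex and were killed 4, 7, 14, 28 or 42 d later (dpi). The group labelled Ctrl was sham operated. Values were available for 29 of 30 labelled animals, 4 at 4 dpi and 5 in each other group. All mice were killed under isoflurane and pentobarbital, perfused with cold Ringer's solution, and the tissue was cut out by hand. Each sample is a whole-tissue RNA pool of 1 animal. In such samples, fewer cells of a type and less RNA per cell cannot be told apart.

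The values were CPM normalized by the authors and rounded to 0.1, and the read depth behind them is unknown. The tissue carried neuronal markers in every group, with a summed level of 15 markers (Snap25, Rbfox3 and others) between 6142 and 7921 in sham animals and between 6548 and 7505 at 42 dpi. Residual 18S ribosomal RNA (Rn18s-rs5) ranged from 30321 to 52929 in sham animals, 44755 to 779160 at 28 dpi and 78737 to 457302 at 42 dpi. Each stroke group was compared with sham in 1 limma fit on log2(value + 0.5) over all 29 animals. A gene was called when its p value, adjusted over 16995 genes (Benjamini-Hochberg), was under 0.05. Fold changes below are on this log2 scale, on which changes of low genes such as Fosb and Npas4 come out too small.

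Many immediate early promoters carry cAMP response elements, to which CREB binds, and serum response elements, to which SRF binds. Of the 9 measured genes, 6 had a promoter in the RefSeq table used here (GRCm38.p6), which spans 250 bases before to 50 bases after the start. These were Fos, Fosb, Junb, Npas4, Nr4a1 and Dusp1. The 5-base core TGACG was present on either strand in 6 of 6, against 20.8% of the 32851 promoters of the same length. The whole element TGACGTCA, which contains the core, was in 1 of the 6 (Dusp1; 1.79% of all promoters), and TATAAA in 2 (Fos and Junb; 13.6%). The CArG box, TGANTCA and GCGTGGGCG, all searched on both strands, were in 0 of the 6 windows and in 1.63%, 7.81% and 0.612% of all promoters. These are matches of letters in a short window and not binding sites. The 250 bases before the start are shown for Dusp1 and Nr4a1, the pair that varied most closely together across animals, for Junb, the third gene that fell below every sham animal at 42 dpi, and for Fos, the gene called at 28 dpi. Capitals mark the matches, and each sequence is given 5′ to 3′ on the strand of its gene.
Dusp1, chr17:26508473-26508722, minus strand: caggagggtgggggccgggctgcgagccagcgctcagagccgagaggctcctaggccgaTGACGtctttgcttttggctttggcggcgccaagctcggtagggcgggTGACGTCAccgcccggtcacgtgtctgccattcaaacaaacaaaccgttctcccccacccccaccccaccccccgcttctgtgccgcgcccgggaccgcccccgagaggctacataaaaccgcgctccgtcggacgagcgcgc
Nr4a1, chr15:101266596-101266845, plus strand: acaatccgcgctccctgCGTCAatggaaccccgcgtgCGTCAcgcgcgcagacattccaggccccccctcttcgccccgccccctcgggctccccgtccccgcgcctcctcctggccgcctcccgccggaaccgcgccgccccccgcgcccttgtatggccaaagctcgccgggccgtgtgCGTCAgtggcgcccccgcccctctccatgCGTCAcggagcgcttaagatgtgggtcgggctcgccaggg
Junb, chr8:84978749-84978998, minus strand: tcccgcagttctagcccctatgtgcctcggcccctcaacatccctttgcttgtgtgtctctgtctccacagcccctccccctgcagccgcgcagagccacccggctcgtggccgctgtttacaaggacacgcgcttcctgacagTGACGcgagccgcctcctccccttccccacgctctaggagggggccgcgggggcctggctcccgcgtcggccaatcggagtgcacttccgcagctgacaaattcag
Fos, chr12:85473640-85473889, plus strand: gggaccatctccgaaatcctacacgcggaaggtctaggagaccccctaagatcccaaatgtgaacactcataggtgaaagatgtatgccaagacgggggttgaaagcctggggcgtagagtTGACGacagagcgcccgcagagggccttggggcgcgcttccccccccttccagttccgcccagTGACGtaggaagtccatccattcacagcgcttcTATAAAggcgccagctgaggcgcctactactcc

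In Dusp1 the whole element began at base -143 and a separate core at -191, counted back from the start. Nr4a1 held 4 cores, at -233, -213, -69 and -40, all on the opposite strand, and 4 or more were found in 0.231% of all promoters. Junb held 1, at -106, and Fos held 2, at -129 and -66, with TATAAA at -33. The TATAAA match of Junb lay at the start itself, outside the bases shown.

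Most of the 9 genes lay below sham at each time point, without passing the adjusted test. The number with a lower mean log2 value than sham was 8, 8, 7, 8 and 8 of 9 on days 4, 7, 14, 28 and 42. The median change of the 9 was -0.14, -0.23, -0.03, -0.34 and -0.46, while the median of all genes was 0.0057, -0.00037, -0.0085, -0.0048 and -0.0070. All 5 comparisons share the same sham animals, so that these counts are not independent of each other. The exceptions above sham were Junb at 4 dpi (0.12), Npas4 at 7 and 28 dpi (0.05 and 0.14), Fos and Fosb at 14 dpi (0.05 and 0.08) and Fosb at 42 dpi (0.06). Single animals moved these counts. Without A10-1 at 4 dpi 3 of 9 lay below sham, and at 14 dpi 4, 3 and 1 did without A12-1 or A12-2 of sham or A5-1 of 14 dpi. At no time point was any of the 9 genes above the whole sham range in each stroke animal. With limma, 0 of 9 were called at 4 dpi (0.106% of all genes were called), 0 at 7 dpi (0.0294%) and 0 at 14 dpi (0.00588%). There was 1 call at 28 dpi (24.9%), and there were 0 at 42 dpi (0.0235%). At an unadjusted p under 0.05 4 dpi had 1 gene (5.14% of all genes), 7 dpi had 1 (5.84%), 14 dpi had 0 (11.6%), 28 dpi had 1 (38.5%) and 42 dpi had 4 (14.8%). The single call at 28 dpi, 1 of 9 genes, is below the share of all genes called there. Lying below sham in every stroke animal was found for 1 gene at 4 dpi (0.612% of all genes) and for 3 at 42 dpi (1.1%). The days between had 0 such genes, against 0.583% of all genes at 7 dpi, 0.953% at 14 dpi and 3.75% at 28 dpi.

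**Figure D1:**
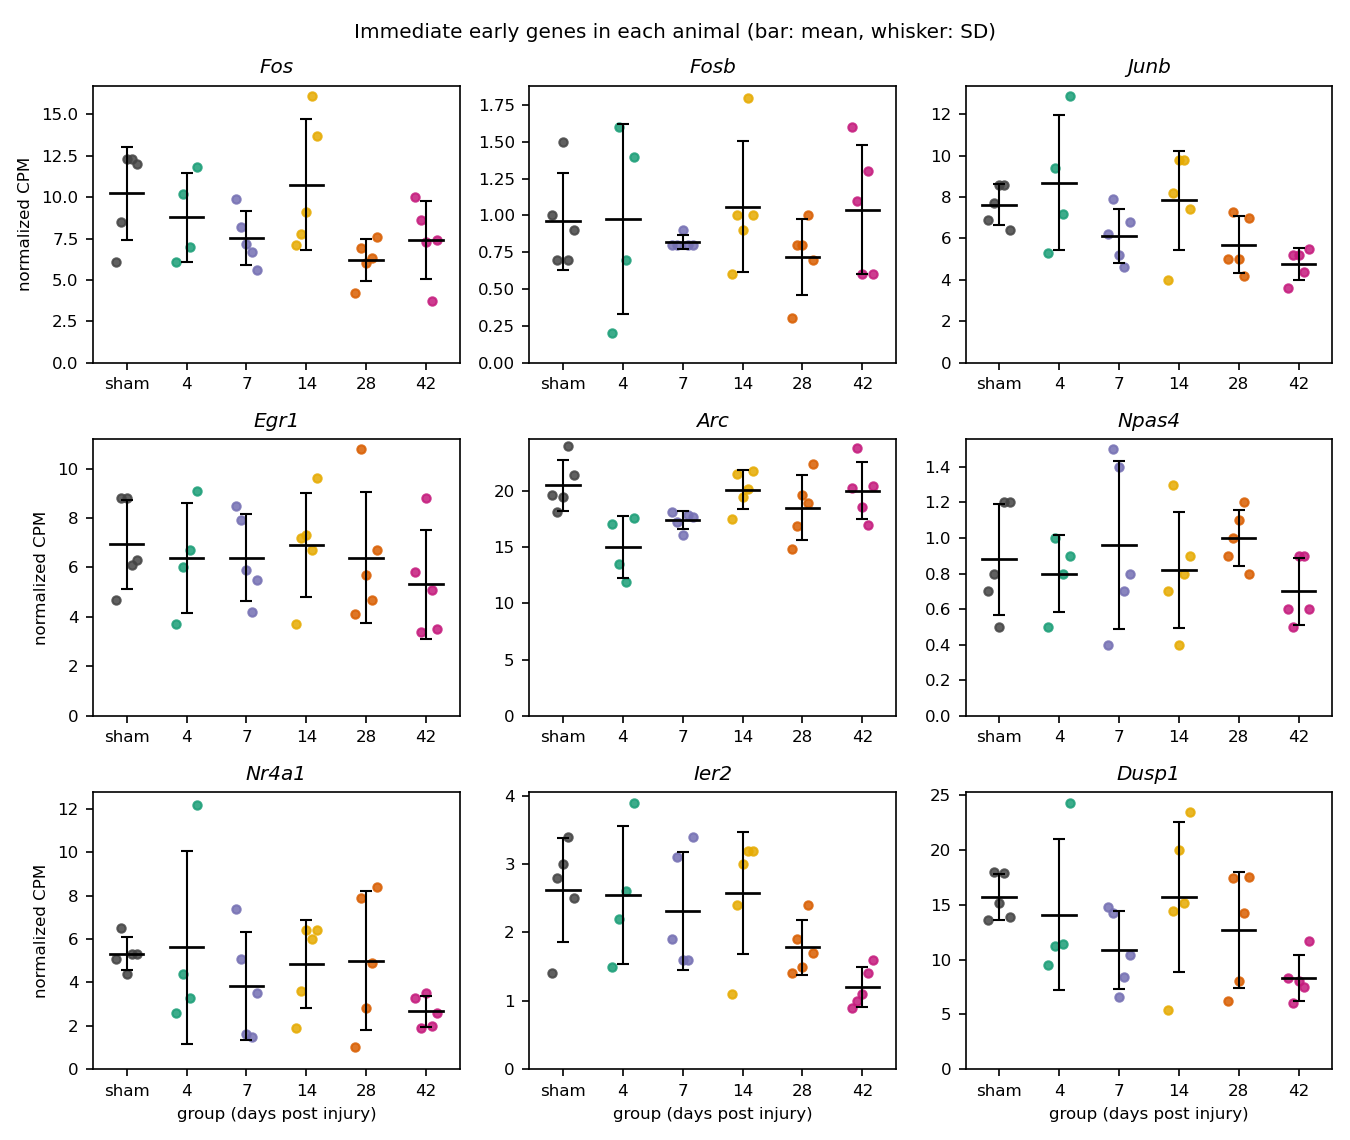
Normalized CPM (vertical axes, each from 0) of the 9 measured immediate early genes in sham animals and in the 5 stroke groups by day. Points are animals, horizontal bars means and whiskers SDs. At 42 dpi all 5 animals lie below all 5 sham animals for Junb, Nr4a1 and Dusp1, and at 4 dpi all 4 animals do for Arc.

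**Figure D2:**
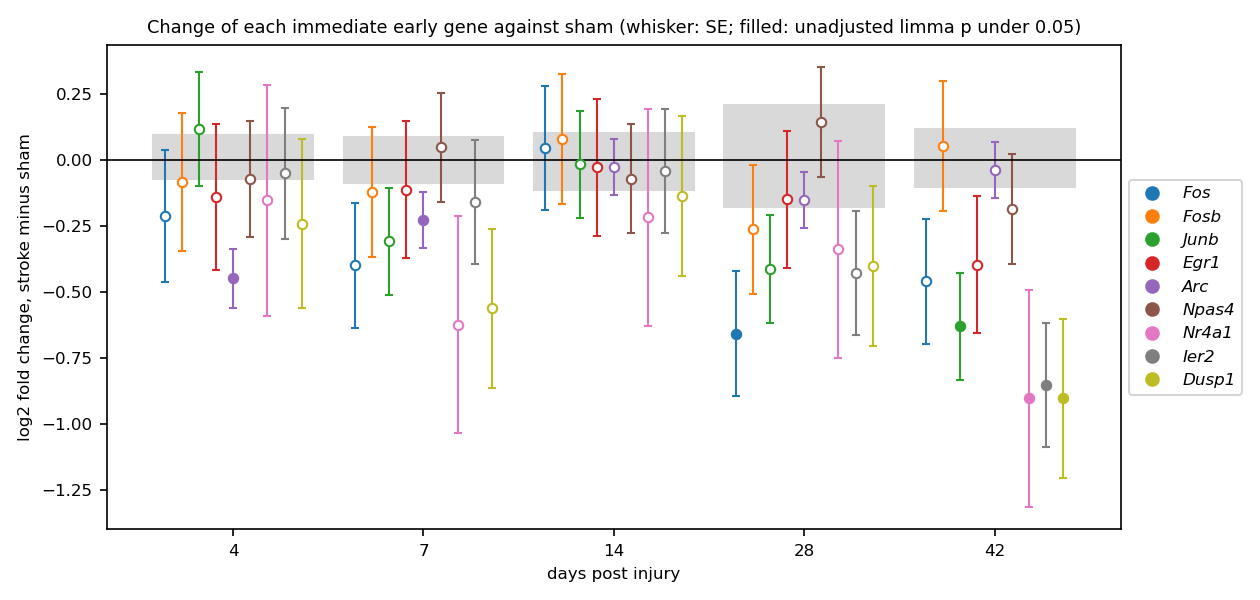
Log2 fold change against sham (vertical axis) of each gene by days post injury, with the SE of the limma fit as whiskers. Filled points have an unadjusted p under 0.05, and grey boxes span the interquartile range of all 16995 genes. At 42 dpi Nr4a1 and Dusp1 (-0.90 each), Ier2 (-0.85) and Junb (-0.63) lie lowest, and Fosb lies near 0.

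Among the transcription factors, Junb and Nr4a1 lay below sham in every animal at 42 dpi. Junb (ENSMUSG00000052837, chr8:84974484-84978718, mm10) encodes an AP-1 subunit that pairs with Fos proteins. The sham animals had 6.9, 7.7, 8.6, 8.6 and 6.4 normalized CPM. At 42 dpi the values were 3.6, 5.2, 5.2, 4.4 and 5.5, all below the lowest sham animal. The means were 7.64 ± 0.991 and 4.78 ± 0.776 (SD, n = 5 each), a log2 change of -0.63 (SE 0.203, 95% interval -1.04 to -0.21). The unadjusted p was 0.00423 and the exact permutation p was 0.00794, the smallest that 5 against 5 animals can give, but the adjusted p was 0.147 in limma. At 28 dpi Junb was 5.0, 7.3, 5.0, 4.2 and 7.0, partly within the sham range (log2 change -0.41, limma adjusted p = 0.133). Over all 6 groups Junb differed (moderated F test of limma, adjusted p = 0.0322). Prdx2 overlaps Junb on the other strand and shares 6.51% of its 31-base words, and the library kit did not mark strand.

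Fos (ENSMUSG00000021250, chr12:85473890-85477273) encodes the AP-1 subunit most used as a marker of activated neurons. Its sham values were 6.1, 8.5, 12.3, 12.3 and 12, a spread that covered most stroke animals. At 28 dpi they were 4.2, 6.9, 6.0, 6.3 and 7.6. Of these, 2 lay below the sham range and none above its middle value. The mean fell from 10.2 ± 2.82 to 6.2 ± 1.27 (SD, n = 5 each). This was the only call of the 9 genes against sham in the fit of all groups (log2 change -0.66, SE 0.236, limma adjusted p = 0.0406, exact permutation p = 0.0397). The call was lost with ribosomal RNA as a covariate (log2 change -0.85, limma adjusted p = 0.105), without the trend (0.0558), and when A12-1, A12-2 or A12-3 of sham or A3-1, A3-3, A4-1 or A4-3 of 28 dpi was left out, with limma adjusted p values from 0.0542 to 0.111. The call was kept in 8 of 10 alternative settings that used every animal. With equal sums of values the log2 change was -1.39 (limma adjusted p = 0.000432), where 66.2% of all genes were called. Fos at 14 dpi was 7.1, 7.8, 9.1, 16.1 and 13.7, the highest group mean of the 6 (10.8 ± 3.94). The step from 14 to 28 dpi was also called, at -0.70 (SE 0.236, limma adjusted p = 0.0168), where 43% of all genes were called. At 42 dpi the values were 10, 8.6, 7.3, 3.7 and 7.4 (log2 change -0.46, limma adjusted p = 0.366).

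Fosb, a relative of Fos whose stable splice form builds up with repeated activity, was low throughout, between 0.2 and 1.8. Its sham values were 1.0, 0.7, 1.5, 0.7 and 0.9. At 42 dpi they were 1.6, 1.1, 0.6, 1.3 and 0.6, with a log2 change of 0.06 (95% interval -0.45 to 0.56). The steps of 0.1 to which the values were rounded are large beside these levels. Egr1, a zinc finger factor tied to lasting synaptic change, ran from 4.7 to 8.8 in sham animals and from 3.4 to 8.8 at 42 dpi. Its change at 42 dpi was -0.40 (limma adjusted p = 0.509), and that at 4, 7, 14 and 28 dpi was -0.14, -0.11, -0.03 and -0.15. The groups of Egr1 overlapped at every time point. Npas4, which unlike the others answers almost only to depolarization and calcium entry in neurons, lay between 0.4 and 1.5 in all 29 animals. It was 0.7, 0.8, 0.5, 1.2 and 1.2 in sham animals and 0.6, 0.5, 0.9, 0.9 and 0.6 at 42 dpi (log2 change -0.19, 95% interval -0.61 to 0.24).

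Nr4a1 (ENSMUSG00000023034, chr15:101266846-101274792) is an orphan nuclear receptor. It stood out for how widely animals of 1 group differed. Sham animals were close together at 5.1, 6.5, 4.4, 5.3 and 5.3. The 4 dpi animals had 2.6, 4.4, 3.3 and 12.2, and the 28 dpi animals 1.0, 7.9, 2.8, 4.9 and 8.4. At 42 dpi the values were 3.3, 1.9, 3.5, 2.0 and 2.6, all below the lowest sham animal. The mean at 42 dpi was 2.66 ± 0.730 against 5.32 ± 0.756 (SD, n = 5 each), 46.5% lower on the fitted scale (log2 change -0.90, SE 0.412). The unadjusted p was 0.0361, the exact permutation p 0.00794 and the adjusted p 0.297 in limma.

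Ier2 (ENSMUSG00000053560, chr8:84661331-84662852) is a rapidly induced nuclear protein. Its sham values were 1.4, 2.8, 3.0, 3.4 and 2.5, and its 42 dpi values were 0.9, 1.0, 1.1, 1.4 and 1.6. The groups met only through the lowest sham animal. Ier2 had the smallest unadjusted p of the 9 genes at 42 dpi (log2 change -0.85, SE 0.235, p = 0.00105 in limma, adjusted p = 0.111, exact permutation p = 0.0238). At 28 dpi the values were 1.4, 1.9, 1.5, 2.4 and 1.7 (log2 change -0.43, limma adjusted p = 0.177). The F test over the groups called it (limma adjusted p = 0.0292).

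Dusp1 (ENSMUSG00000024190, chr17:26505590-26508519) encodes a phosphatase that switches MAP kinases off and so ends the signal that induced it. Sham animals had 13.6, 18, 15.2, 17.9 and 13.9. At 42 dpi they had 8.3, 6.0, 8.0, 7.5 and 11.7, again all below sham. The mean was 8.30 ± 2.10 against 15.7 ± 2.12 (SD, n = 5 each). The log2 change was -0.90 (SE 0.302, 95% interval -1.52 to -0.29), with an unadjusted p of 0.00551, an exact permutation p of 0.00794 and an adjusted p of 0.156 in limma. Values at 28 dpi were 6.2, 17.4, 8.0, 14.2 and 17.5, partly as high as in sham animals. Dusp1 overlaps Ergic1 on the other strand, but 0% of its 31-base words were shared with another gene. In a fit of only the sham and 42 dpi animals, Dusp1, Nr4a1 and Junb were called (limma adjusted p = 0.0101, 0.0250 and 0.0493), while Ier2 was not (0.0825), and 0.412% of all genes were called in that fit. With the sum of values made equal, which also lowered the median of all genes, 0.824% of all genes were called at 42 dpi. Dusp1, Nr4a1, Ier2 and Junb were then called, at -1.44, -1.40, -1.30 and -1.14 (limma adjusted p = 0.000337, 0.00309, 0.00296 and 0.0119).

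Arc followed another course. Arc (ENSMUSG00000022602, chr15:74669083-74672570) is the effector of the set, a capsid-like protein that travels to active synapses and takes part in AMPA receptor removal. Its sham values were 19.6, 18.1, 19.5, 24.0 and 21.4. At 4 dpi they were 17.1, 13.5, 11.9 and 17.6, all below the lowest sham animal. The mean was 15.0 ± 2.77 (SD, n = 4) against 20.5 ± 2.27 (SD, n = 5), a log2 change of -0.45 (SE 0.112, 95% interval -0.68 to -0.22). The unadjusted p was 0.000386, the exact permutation p 0.0159, the smallest that 4 against 5 animals can give, and the adjusted p 0.134 in limma. Over the alternatives, the adjusted p of limma ran from 0.0461 with array weights, the 1 setting with a call, through 0.397 in the fit of only these 2 groups and 0.764 without A10-4 of 4 dpi, to nearly 1 with equal sums of values. At 7 dpi the values were 18.1, 17.2, 16.1, 17.9 and 17.7, at or just below the lowest sham animal (log2 change -0.23, p = 0.0407 in limma, adjusted p = 0.840, exact permutation p = 0.0159). At 14 dpi they were 17.5, 21.5, 19.5, 20.2 and 21.8, within the sham values but for 1 animal. At 42 dpi the change was -0.04 (95% interval -0.25 to 0.18). Arc was called over the 6 groups (F test of limma, adjusted p = 0.0166). Left out singly, A10-4 of 4 dpi left only Ier2 called in that test, and A1-1 of 42 dpi only Arc. With Junb and Ier2 it made 3 of 9 genes called in that test, where 31.6% of all genes were called. No step other than that of Fos was called in limma: 0 of 9 from 4 to 7 dpi (0% of all genes), 0 from 7 to 14 dpi (0%) and 0 from 28 to 42 dpi (1.94%), with 0 of 9 at an unadjusted p under 0.05 in each of these 3 steps. The fall of Nr4a1, Ier2, Dusp1 and Junb between 28 and 42 dpi, and the return of Arc between 4 and 14 dpi, therefore did not pass the test step by step.

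At 4 dpi, where Arc was low, microglial markers were high. All 7 of 7 had a higher mean than sham, with 5 at an unadjusted p under 0.05 (5.14% of all genes) and 0 called in limma, and their summed level was 92.8 to 138.8 against 77.0 to 87.3 in sham animals. The astrocyte marker Gfap rose (log2 change 1.18, limma adjusted p = 0.0480), and neuron markers had a median change of -0.06. At 42 dpi, all 7 of 7 oligodendrocyte markers had a lower mean (median -0.36), 4 of them lower in every animal than in sham (1.1% of all genes), and 0 called in limma with 6 at an unadjusted p under 0.05 (14.8% of all genes). Their summed level was 5198 to 6280 against 6237 to 9282. All 4 of 4 precursor markers also had a lower mean (median -0.27, 0 called in limma, 3 at an unadjusted p under 0.05), with a summed level of 59.9 to 66.4 against 70.9 to 83.0. The 15 neuron markers had a median of 0.03, and the 7 endothelial markers a median of -0.08 with a summed level of 136.2 to 155.4 against 129.9 to 160.3. No marker of these lists was at 0 in every animal of a group. What part the marker changes and the ribosomal RNA had in the values of the 9 genes was not tested beyond the covariate fit.

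Animals of 1 group differed in these genes more than in most. The residual SD of log2 values about the group means was above the median of all genes (0.191) for 8 of 9, all but Arc (0.174). It was 0.734 for Nr4a1, above 98.9% of all genes, 0.539 for Dusp1 and 0.456 for Egr1. Genes with low values vary more, and relative to the value fitted for genes of the same level the residual SD was 3.25 times as large for Dusp1, 3.07 for Nr4a1, 2.19 for Egr1 and for Fos, 1.71 for Junb and 0.934 for Npas4. Over all genes, 51.8% lay above that fitted value. The coefficient of variation of Nr4a1 was 14.2% in sham animals and 79.0%, 65.3%, 41.7%, 63.9% and 27.4% on days 4, 7, 14, 28 and 42. For Dusp1 it was 13.5% in sham animals and 48.6%, 32.8%, 43.6%, 41.7% and 25.3%. Single animals set some of these values. Without A9-4 the value at 4 dpi was 26.4% for Nr4a1 and 9.76% for Dusp1, the latter below sham. Without A5-1 the value at 14 dpi was 24% for Nr4a1 and 23.4% for Dusp1, and without A3-4 that of Dusp1 at 42 dpi was 13.7%. For Junb it was 13% in sham animals and 16.2% to 37.5% in the stroke groups, with 13.6% at 14 dpi without A5-1 and 9.29% at 42 dpi without A1-1. Egr1 had 26% in sham animals and 27.7% to 41.4% in the stroke groups, but less than in sham at 4, 7, 14 and 28 dpi when A10-1, A8-1, A5-1 or A3-3 was left out (22.4%, 21.2%, 16.8% and 21.6%). For Fos, Fosb, Arc, Npas4 and Ier2 the stroke groups lay on both sides of sham, and the values of these genes also moved with single animals, as for Fos in sham animals (27.5%, and 16.5% without A11-1) and at 28 dpi (20.6%, and 10.6% without A3-1). These differences in spread were not tested.

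The spread was shared between genes. After subtraction of each group's mean, the 36 pairs of the 9 genes had a median r of 0.398 over the 29 animals, from -0.07 to 0.887, and 32 were above 0. The median r of each gene with all other genes lay between -0.0278 and 0.0076. 13 pairs had an adjusted p under 0.05 by Pearson's r and 12 by Spearman's rho, 11 of them by both (100000 permutations within groups, Benjamini-Hochberg over the 36 pairs). Nr4a1 and Dusp1 were closest, with r = 0.887 and rho = 0.903 (permutation p = 1e-05, the smallest these permutations can give, adjusted p = 0.00036), and leaving out the 2 most distant animals gave r = 0.857. Within single groups their r ran from 0.419 to 0.981. Ier2 and Dusp1 followed with r = 0.733 (rho = 0.680, adjusted permutation p = 0.00168, 0.711 with the distant animals left out), then Egr1 and Nr4a1 with r = 0.715 (rho = 0.738, adjusted permutation p = 0.00144, 0.691). Junb had r = 0.712 with Dusp1 and with Ier2 (rho = 0.627 and 0.617, adjusted permutation p = 0.00616 and 0.00475, 0.693 and 0.667). Dusp1 and Nr4a1 each had 5 pairs past the adjusted limit, Junb, Egr1 and Ier2 had 4 each, and Fos had 3. Arc had 1, with Fos (r = 0.490, rho = 0.485, adjusted permutation p = 0.0436 and 0.0503). Npas4 and Fosb had 0, with median r to the others of 0.0434 and 0.341. The points share a library and its scaling. How many pairs of other genes pass the same test is not given here. Ranked by r among 16994 other genes, Nr4a1 was number 2 for Dusp1 and Dusp1 number 1 for Ier2. Other pairs past the limit ranked further down, with Ier2 number 198 for Egr1 and Fos number 265 for Arc. Only Ier2 had another of the 9 as its closest gene, while that of Junb and Dusp1 was Apold1 and that of Fos 4933407I08Rik.

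**Figure D3:**
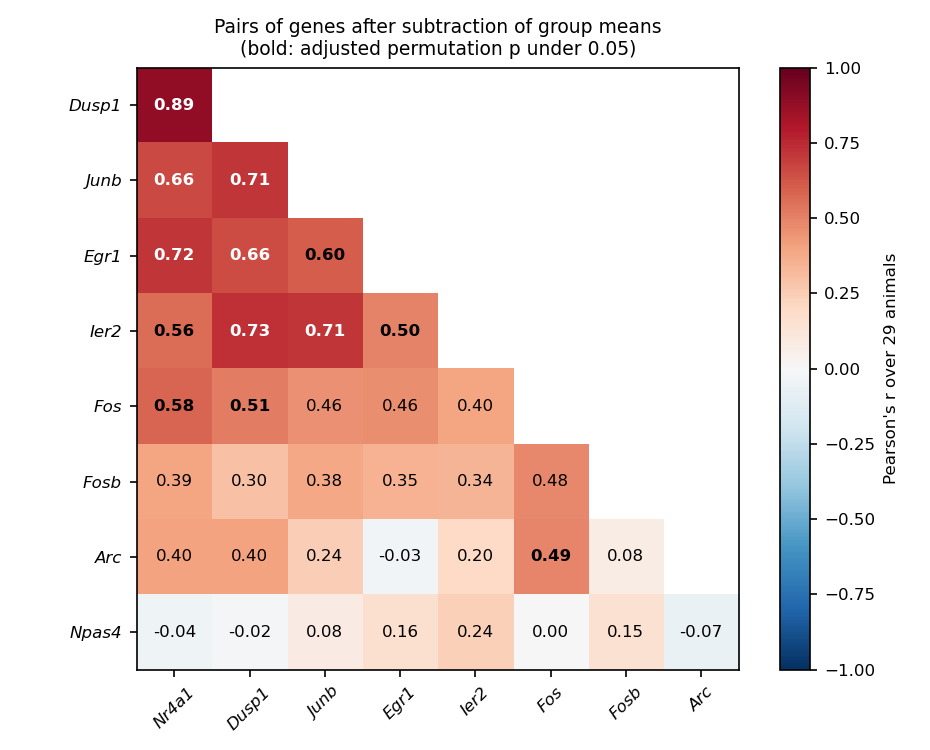
Pearson's r of each pair of genes over 29 animals after subtraction of group means (color and number in each square). Bold numbers have an adjusted permutation p under 0.05. The block of Nr4a1, Dusp1, Junb, Egr1 and Ier2 reaches 0.89, while the row of Npas4 stays between -0.07 and 0.24.

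Some animals stood to one side of their group in all 9 genes. Animal A9-4 at 4 dpi was above its group mean in 9 of 9 genes, with the highest value of its group for Fos, Junb, Egr1, Arc, Nr4a1, Ier2 and Dusp1. Animal A6-2 at 14 dpi was also above in 9 of 9. Animals A5-1 at 14 dpi and A3-1 at 28 dpi were above in 0 of 9. The mean standardized deviations ran from -0.73 to 0.48 in sham animals, -1.22 to 1.48 at 4 dpi, -0.71 to 0.77 at 7 dpi, -1.74 to 0.73 at 14 dpi, -1.32 to 0.66 at 28 dpi and -0.29 to 0.19 at 42 dpi. Rn18s-rs5 was 114026 in A9-4 against 18295 to 29279 in the other animals of its group, 95114 in A5-1 in a group of 32754 to 817780, and 417971 in A3-1 in a group of 44755 to 779160, and its part in these deviations was not tested. Without A9-4, the median change of the 9 genes at 4 dpi went from -0.14 to -0.32, and Junb turned from 0.12 to -0.09. Without A10-1 of the same group the median was 0.08. Without A5-1 the median at 14 dpi went from -0.03 to 0.17, and the number of genes below sham from 7 to 1. Without A3-1 the median at 28 dpi went from -0.34 to -0.12, and the call of Fos was lost.

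**Figure D4:**
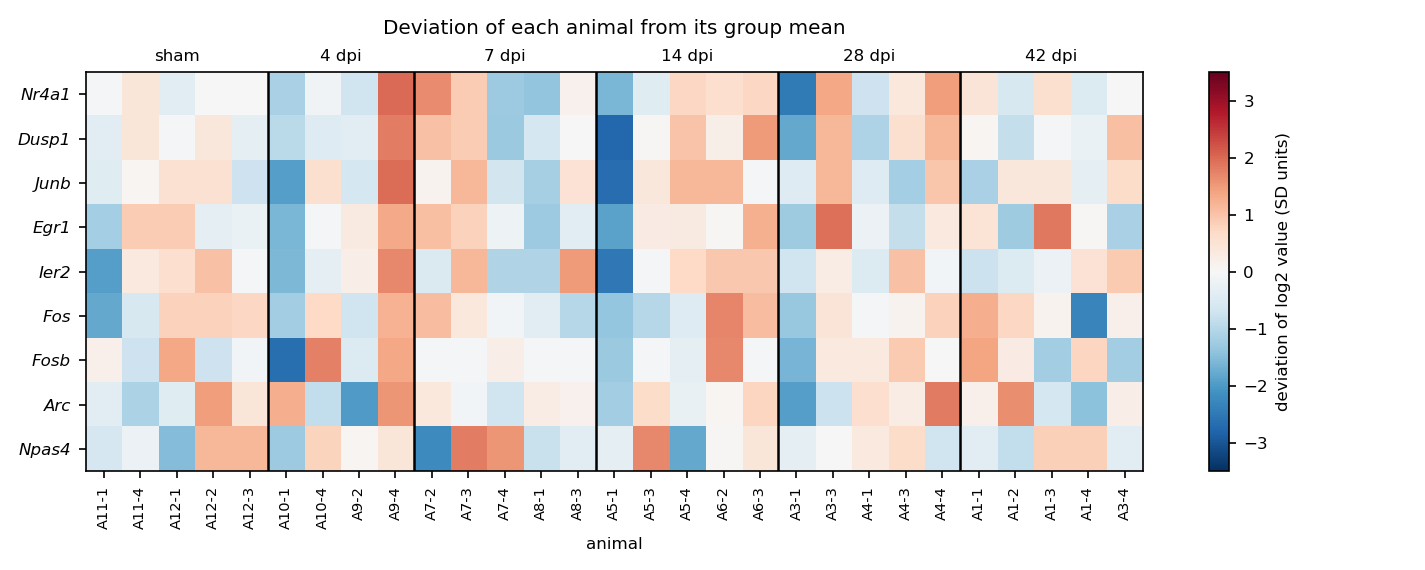
Deviation of each animal (columns, by group) from its group mean of log2 values, in SD units of that gene (color), for the 9 genes (rows). A9-4 is high and A5-1 and A3-1 are low across nearly all rows, and the means of sham animals stay between -0.73 and 0.48.

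The other genes whose group-centred values were most like the mean of the 9, over 29 animals, were Apold1 (r = 0.893), Klf2 (0.884), Atf3 (0.822), Cyr61 (0.811), Btg2 (0.805), Zfp36 (0.772), 8430408G22Rik (0.758), Klf4 (0.754), Apba3 (0.726) and Ctla2b (0.722). Of these 10, 5 are on the list of other rapid response genes and Atf3 is an AP-1 relative. At 42 dpi, Cyr61, a matricellular protein, had a mean of 1.44 ± 0.740 against 5.62 ± 0.680 in sham animals (SD, n = 5 each; log2 change -1.75, limma adjusted p = 0.102, and 0.0491 with the first number of the animal codes as a random block). With the block, 0.488% of all genes were called at 42 dpi, against 0.0235% without it. Btg2, an antiproliferative protein, had 3.94 ± 1.53 against 9.80 ± 0.846 (log2 change -1.28, limma adjusted p = 0.128). Klf2, a zinc finger factor well known from vessel lining cells, had 1.80 ± 0.187 against 4.08 ± 1.04 (log2 change -0.96, limma adjusted p = 0.191). Of those on the lists, Cyr61, Btg2, Klf2 and Atf3 were lower in all 5 animals than in all 5 sham animals (1.1% of all genes). Atf3 was low throughout this comparison, at 0.36 ± 0.167 against 0.96 ± 0.378 (SD, n = 5 each). Zfp36, which destabilizes mRNAs, had a change of -0.71 (limma adjusted p = 0.220) and lay below sham in 4 of 5 animals. Apold1 had a change of -1.24, Atf3 of -0.75, Ctla2b of -0.61 and Apba3 of -0.17, and Klf4 and 8430408G22Rik had 0.08 and 0.19, none of them called (limma adjusted p from 0.151 to 0.933).

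**Figure D5:**
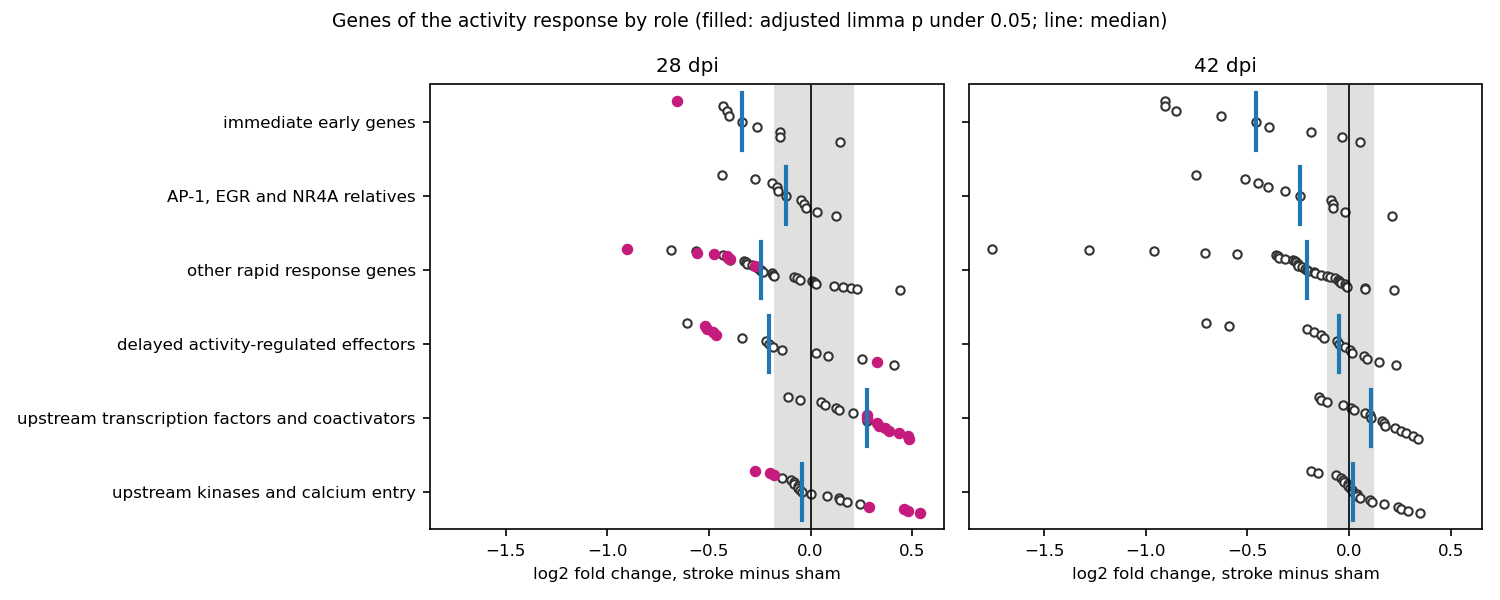
Log2 fold change against sham (horizontal axis) of single genes at 28 dpi (left) and 42 dpi (right), in rows by role. Filled points have an adjusted p under 0.05, vertical lines are medians, and the grey band spans the interquartile range of all genes. At 42 dpi the median of the immediate early genes is -0.46 and that of the upstream transcription factors 0.11.

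The rest of the activity response was described by role. Among 11 measured AP-1, EGR and NR4A relatives, 10 had a lower mean at 42 dpi (median -0.24, 0 called in limma, 3 at an unadjusted p under 0.05). Jun did not pass the test, with 16.2 ± 2.15 against 23.3 ± 3.01 (log2 change -0.51, limma adjusted p = 0.128), nor did Jund, with 28.0 ± 4.34 against 38.2 ± 5.17 (-0.45, 0.106), each SD with n = 5. Nab1, a corepressor of EGR factors, had -0.19 at 4 dpi (limma adjusted p = 0.503). Of 35 other rapid response genes, 32 had a lower mean at 42 dpi (median -0.21), 0 were called in limma, 11 had an unadjusted p under 0.05 (14.8% of all genes) and 6 lay below sham in every animal (1.1% of all genes). At 28 dpi 7 of the 35 fell and 0 rose, with 24.9% of all genes called there. Every call at 28 dpi given for this and the following lists was lost with Rn18s-rs5 as a covariate, where 0 of 16995 genes were called in limma. The smallest p values were those of Errfi1, an inhibitor of EGF receptors (-0.41, limma adjusted p = 0.00187), Rhob, a small GTPase (-0.27, 0.00932), Plk2 (-0.40, 0.0108), Dusp6, which acts on ERK (-0.41, 0.0173) and Nfkbia, an inhibitor of NF-kappaB (-0.48, 0.0184). Errfi1 also stands on a list of glucocorticoid response genes, of which 5 of 9 fell at 28 dpi.

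Delayed effectors, which immediate early factors help to induce, were called at 3 time points. Vgf, a secreted neuropeptide precursor, fell at 4 dpi (log2 change -0.81, limma adjusted p = 0.00915) and at 7 dpi (-0.67, 0.0496), the 1 gene of 15 called at each. Its changes at 14, 28 and 42 dpi were -0.45, -0.22 and -0.59, without a call (limma adjusted p = 0.381, 0.206 and 0.0724). At 28 dpi 4 of 15 fell and 1 rose. The G protein signalling regulator Rgs2 (-0.52, limma adjusted p = 0.00302), the granin Scg2 (-0.47, 0.00353) and Nrn1 (-0.48, 0.0133) fell, as did the growth factor Bdnf (-0.51, 0.0254; named after its values were seen), and the translation regulator Cpeb3 rose (0.32, 0.0152). Bdnf at 4, 7, 14 and 42 dpi had changes of -0.61, -0.52, -0.28 and -0.17, without a call (limma adjusted p = 0.275, 0.791, 0.498 and 0.678). At 42 dpi 0 of 15 were called in limma, with 3 at an unadjusted p under 0.05. Of 17 upstream transcription factors and coactivators, 9 rose at 28 dpi, 0 fell and 8 were not called. Creb1 and Srf, whose proteins bind the elements named above, had changes of -0.05 and -0.11 (limma adjusted p = 0.631 and 0.496; named after their values were seen). Crebbp (0.48, limma adjusted p = 0.00387) and Ep300 (0.43, 0.00800) are the acetyltransferases that CREB recruits, Crtc1 (0.48, 0.00806) is a CREB coactivator, and Mef2a (0.28, 0.00378) and Mef2d (0.34, 0.00577) are MEF2 factors. Among 21 kinases and calcium entry genes, 4 rose and 3 fell at 28 dpi. The calcium channel genes Cacna1c (0.48, limma adjusted p = 0.00164) and Cacna1d (0.46, 0.00218) and the NMDA receptor gene Grin2b (0.54, 0.00187) rose, and Map2k1 (-0.27, 0.00577) and Prkacb (-0.18, 0.0129) fell. Against a background of 24.9% of all genes called at 28 dpi, nothing particular to these lists is claimed. With the sum of values made equal between animals, the median of all genes moved by -0.73 at 28 dpi, and the 9 named genes of these lists that rose turned negative.

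The remaining named genes of the marker and stress lists were measured at 28 dpi unless another day is given, each with its log2 change and limma adjusted p. Of 15 neuron markers Snap25 (-0.30, 0.0160) and Elavl4 (-0.18, 0.0238) fell and Slc6a5, the glycine transporter (0.30, 0.0339), rose. Astrocyte markers beside Gfap were Aqp4 (-0.26, 0.0116), Slc1a2 (0.29, 0.0204) and Aldh1l1 (-0.20, 0.0377). Of the oligodendrocyte markers, Mog (-0.44, 0.00430), Mobp (-0.47, 0.00473) and Cnp (-0.35, 0.0207) fell. Of 4 precursor markers Gpr17 (-0.34, 0.0257) fell, and of 7 microglial markers Siglech (0.44, 0.0181) and Cx3cr1 (0.34, 0.0252) rose. Vessel markers were Ly6c1 (-0.54, 0.00315) and Flt1 (0.36, 0.0289) of endothelium, and Kcnj8 at 7 dpi (-0.55, 0.791), Tagln at 4 dpi (0.45, 0.872) and Pdgfrb (0.27, 0.104) of pericytes and smooth muscle. Col1a1 (0.61, 0.0333), Alas2 (0.91, 0.00238) and Drp2 (0.27, 0.00433) were the called markers of meninges, blood and Schwann cells. Of 8 heat shock genes, Hsp90aa1 (-0.34, 0.00259), Hspa5 (-0.49, 0.00315), Hspa8 (-0.33, 0.00567) and Dnajb1 (-0.31, 0.0221) fell at 28 dpi and 0 were called at 42 dpi in limma, with 1 higher at an unadjusted p under 0.05. Of the glucocorticoid list, Tsc22d3 (-0.43, 0.00213), Mt2 (-0.75, 0.00636), Sgk1 (-0.90, 0.0191) and Mt1 (-0.58, 0.0207) fell with Errfi1, and at 42 dpi 0 were called in limma, with 1 higher and 1 lower at an unadjusted p under 0.05. With equal sums, Slc6a5, Slc1a2, Siglech, Cx3cr1, Flt1, Pdgfrb, Col1a1 and Drp2 turned negative.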

How the data were processed

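RNA-seq of the intermediate laminae (C5/C6) of 29 mice was analysed, with groups taken from the sample titles. Per the labels, RNA was ribo-depleted and sequenced with an unstranded kit. The authors quantified reads on mm10 with SALMON and Tximport and normalized with edgeR 3.14.0 (R 3.4.1, submitters' processing notes). The deposited values are scores: this normalized CPM rounded to 0.1. It is not a count, and depth is unknown. The authors' own fold changes and p-values, also in the table, were not used.

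Values were analysed as log2(value + 0.5) with limma 3.58.1 (R 4.3.3, trend on the mean), all 6 groups in 1 fit and Benjamini-Hochberg adjustment over 16995 genes. Calls had an adjusted p under 0.05. Intervals (95%) used 30.2 moderated degrees of freedom. Exact permutation tests were two-sided. Correlations used group-centred values and 100000 permutations within groups. Python 3.11.15 with scipy 1.17.1 was used, and the fit was tested on simulated data. Alternatives (other pseudocounts, normalizations, filters, covariates and left-out animals) are given in the closing section. No column lacked a sample (0), and 9 measured genes give 36 pairs. Named genes were the members, up to 5 called genes of each fixed list (otherwise the 3 with the smallest p), and the 10 genes most like the members' mean. A named marker is not reported here. Members and lists were chosen with earlier results of these data known. Positions are from the authors' table, promoters from RefSeq, and overlaps from GENCODE M21. Labels do not state litters or cages, so that p-values measure the spread between animals.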

Additional observations from a re-analysis of the deposited data

Results flagged for a closer look

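The highest or lowest animal was set apart from the rest of its group in 2 of 54 combinations of gene and group, by a gap larger than Dixon's limit for a group of that size. Chance alone flags about 1 in 20 groups. Dusp1 was 24.3 in animal A9-4 at 4 dpi, against 9.5 to 11.4 in the other 3 animals, a gap of 0.872 of the group's range. The same animal was highest of its group for Nr4a1, Junb and Ier2 as well. Fosb was 0.9 in animal A7-4 at 7 dpi and 0.8 in the other 4, a difference of 1 rounding step. Fos differed between 28 and 14 dpi by the test of the step itself, with a log2 change of -0.70 (limma adjusted p = 0.0168), and this call was lost when A6-2 or A6-3 of 14 dpi or A3-1 of 28 dpi was left out.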

How the results depend on the processing

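Rescaling to the same sum, which moved the median of all genes by -0.48, -0.73 and -0.52 at 14, 28 and 42 dpi, called 8 of the 9 genes at 28 dpi (66.2% of all genes), 4 at 42 dpi (0.824%) and 7 over the 6 groups (66.5%), and turned 17 named genes: Cpeb3 to -0.46, Mef2a to -0.51, Crebbp to -0.30, Mef2d to -0.44, Ep300 to -0.35, Crtc1 to -0.30, Cacna1c to -0.30, Grin2b to -0.25, Cacna1d to -0.31, Slc6a5 to -0.49, Slc1a2 to -0.50, Siglech to -0.26, Cx3cr1 to -0.43, Flt1 to -0.42, Pdgfrb to -0.48, Col1a1 to -0.091 and Drp2 to -0.51. At 28 dpi 0 were called with Rn18s-rs5 as a covariate, where 0 of all genes were called, and 0 without the trend. Array weights called 1 at 4 dpi (Arc; 0.300% of all genes), the fit of 2 groups 3 at 42 dpi (0.412%), and quantile normalization 2 (Fos and Ier2; 41%) from 14 to 28 dpi. Leaving out 1 animal gave 0 to 1 calls at 28 dpi, 0 to 3 from 14 to 28 dpi (3 without A5-1) and 1 to 4 over the 6 groups, the last chosen after seeing the data. The fit of all animals called 24.9%, 43% and 31.6% of all genes in these 3 comparisons. The shares in these refits, and in the fit without the trend, are not given here. The counts therefore show only how far the calls moved. The causes were not tested. The median r of the pairs stayed between 0.315 (without A9-4) and 0.542 (same sum). No paired analysis was possible because no animal code recurs between groups and only 28 and 42 dpi share the first number of the code (A3). With that first number as a random block (consensus correlation -0.0441), the number of the 9 genes called did not change in any comparison. Of all genes, 28.8% were called at 28 dpi and 0.488% at 42 dpi in that fit (24.9% and 0.0235% without the block). Cyr61 at 42 dpi was among them (limma adjusted p = 0.0491). Apart from A3, each first number occurs in 1 group only, and 42 dpi held A1-1 to A1-4 and A3-4. The block therefore cannot separate a difference between groups from one between these numbers. The unknown depth limits Fosb and Npas4 most, at values near 1.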
